A study of Oryza sativa Japonica Group with 12 samples.

Results

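The comparison described here is between the stem bases of 2 rice lines that carry no transgene. Both are null segregants, sisters that lost the T-DNA when the offspring of a transformed plant segregated, and both are in the crl1 mutant background. They were chosen by their labels, as the 6 arrays of null lines among the 12 arrays of the study. Null 67.1 is line 67.1.1.5 and null 67.5 is line 67.5.13.4, with 3 arrays each. The other 6 arrays, of their sisters with the construct pC5300.OE-OsbHLH044, lines 67.1.11.7 (OE 67.1) and 67.5.9.12 (OE 67.5), served to estimate the spread and to see whether a difference recurred.

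Rice plants rely on crown roots, which arise after embryogenesis from the base of the stem. CRL1 is an auxin-induced LOB-domain transcription factor that is needed to start them, so all 4 lines shared a background that forms no crown roots. A null segregant passed through the same transformation and tissue culture as its transgenic sister, and plants regenerated from culture are known to differ from each other by heritable changes. Comparing null segregants of separate families therefore addresses how much the background varies where no transgene is present.

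All plants were of the cultivar Taichung 65. They were 6 days old, having spent 5 days on a filter pad with medium and 24 h in a flask, and 10 to 15 stem bases were collected for each repetition, of which 8 to 12 were ground together. Each null group is a single line of a single family, so the null arrays alone cannot separate what is particular to the line from what is particular to the family, and no group of the parental crl1 plants entered the comparison. Neither CRL1 nor OsbHLH044 was named by a tested probe set. LOC4331887, a gene without an informative name, was chosen because earlier results of these arrays had it high in the overexpressing lines, so its order between null and OE arrays describes the data and is no check of the labels. Its level, on the log2 scale of all levels below, was 6.25, 6.52 and 6.14 in null 67.1 and 6.09, 6.47 and 6.21 in null 67.5, against 9.45 to 9.76 on the 6 OE arrays. The null lines differed by 0.05 ± 0.11 (log2 difference ± SE, 95% interval -0.20 to 0.29).

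Marker genes of the sampled tissue were only partly represented. Of 10 genes of the shoot apex and stem base, 4 had a tested probe set: HOX9, HOX33 and PNH1 lay above the array median on all 6 null arrays, and HOX1 lay below it on all 6, while OSH1, OSH15, OSH6, OSH71, CUC3 and NAM were not represented under those names. The seed marker genes with a tested probe set were low, and GLUB1 had none. GLUA1, GBSS1 and AMY1.1 were below the array median on all 6 null arrays, with levels from 2.42 to 3.26. The root silicon transporter gene LSI1 was above the median (5.30 to 5.68) and LSI2 below it (2.57 to 3.35) on all 6.

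Before any gene is considered, the 6 null arrays differed in ways that involved many genes together. The first principal component held 50.9% of the variance and placed the 3 null 67.1 arrays at 20.5, 18.5 and 6.37 and the null 67.5 arrays at 3.36, -19.9 and -28.8. On this component null 67.5 replicate 1 thus lay beside null 67.1 replicate 3 and away from the other arrays of its own line. The same pair lay apart on the second component (8.21 and -10.2) and on the third (8.73 and -16.7). Null 67.5 replicate 1 also had the lowest of the array weights. The median SD between replicates was 0.103 in null 67.1 and 0.130 in null 67.5, and 0.115 and 0.117 in the OE lines.

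The arrays also differed in how far bright and dim probe sets were spread. When the tested probe sets were divided into quintiles by mean level, the median difference null 67.1 minus null 67.5 ran from 0.05 in the dimmest quintile to -0.11 in the brightest, where 74.9% of the differences were below 0. The OE lines ran the same way, from 0.08 to -0.15. Quantile normalization of the arrays removed the shift in the brightest quintile (median 0.00). In the brightest quintile null 67.1 replicate 1 and null 67.5 replicates 2 and 3 took the extreme positions, as the plot of each array's deviation by brightness shows. Gene groups that are bright on these arrays are therefore reported below with their medians before and after this step; the part of the shift in each group's result was not tested beyond that.

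**Figure D1:**
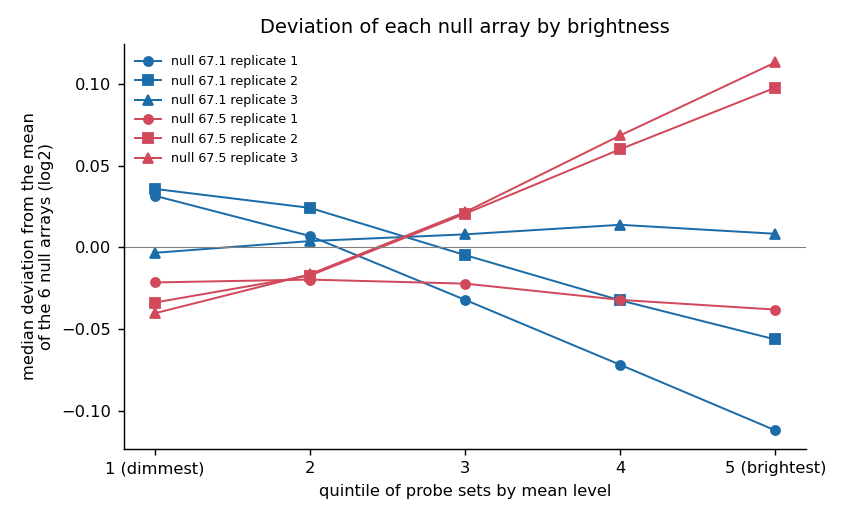
Median deviation of each null array from the mean of the 6 null arrays (log2, y axis) for the quintiles of the tested probe sets by mean level (x axis). Blue lines are null 67.1, red lines null 67.5, and symbols mark the replicate. In the brightest quintile null 67.1 replicate 1 lies at -0.11 and null 67.5 replicate 3 at 0.11, while null 67.5 replicate 1 lies at -0.04, among the null 67.1 arrays.

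A moderated linear model (limma) over all 12 arrays, with the Benjamini-Hochberg adjustment over 24251 probe sets and a threshold of 0.05, called 56 genes between the null lines, 0.231% of those tested. Null 67.1 was higher in 13 of them (0.0536% of those tested) and lower in 43 (0.177%). After quantile normalization 60 were called, with 20 higher, so that the share of higher calls moved from 23.2% to 33.3%. At an unadjusted p under 0.05 there were 4252 probe sets, 17.5%. The count depended on single arrays: it was 1113 (4.59%) without null 67.5 replicate 1, but 10 and 12 without null 67.1 replicates 1 and 2, 17 without null 67.5 replicate 3, and 34 and 35 without OE 67.1 replicate 3 and OE 67.5 replicate 2. All 56 stayed called without null 67.5 replicate 1.

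The largest difference by far was that of LOC4342250, a gene with no informative name. Its level was 3.15, 2.93 and 2.94 in null 67.1 and 9.08, 9.36 and 9.22 in null 67.5. No array of one line came near the other, and the log2 difference was -6.21 ± 0.11 (adjusted p = 3.67e-14). The null 67.1 levels lay within the range of the dimmest quintile of probe sets, 2.15 to 3.39, and these values do not show whether they exceeded background, so the size is at best a lower bound. The overexpressing sisters repeated the split, with 2.80, 2.95 and 2.73 in OE 67.1 against 9.18, 8.97 and 9.18 in OE 67.5, so that each line had the level of its family whether or not it carried the construct. The genes on either side of it in the gene order differed by 0.15 and -0.06 between the null lines, with adjusted p-values of 0.501 and 0.821.

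The other called genes differed far less. Of the 56, 12 were lower and 2 higher in null 67.1 by at least 1 on the log2 scale, the median size was 0.729, and the smallest was 0.483. Apart from LOC4342250, the genes with the largest falls included LOC4326757, with 3.85, 3.90 and 3.63 in null 67.1 and 5.50, 4.98 and 6.77 in null 67.5. Null 67.5 replicate 3 was the highest array, but the lines did not overlap, and the difference was -1.96 ± 0.31 (adjusted p = 0.0177). LOC4342552 followed the same course, at 3.54, 3.61 and 3.75 against 4.82, 4.69 and 5.91, a difference of -1.51 ± 0.23 (adjusted p = 0.0138). Both genes were high in null 67.5 alone: the 6 OE arrays lay between 3.34 and 4.09 for LOC4326757 and between 3.56 and 4.12 for LOC4342552.

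The 13 genes higher in null 67.1 differed by 0.51 to 1.08. Among them, LOC9271453 had levels of 6.68, 6.75 and 6.55 against 6.12, 5.43 and 5.19 in null 67.5. Its difference was 1.08 ± 0.20 (adjusted p = 0.0472), close to the threshold, and the call was lost without 9 of the 12 arrays. LOC9271957 was at 4.55, 4.70 and 5.11 against 3.78, 3.86 and 3.63, a difference of 1.03 ± 0.13 (adjusted p = 0.00632) that was called without any array in turn. On the OE arrays LOC9271957 lay between the null lines, from 3.93 to 4.26. Its next tested neighbour in the gene order, LOC9270180, differed by 1.40 in the same direction but missed the threshold (adjusted p = 0.0546).

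Only 5 of the 56 genes had an informative name, and all 5 were lower in null 67.1. OsC3H60 (LOC9268567), also named U2AF35A for the small subunit of the U2AF splicing factor that reads the end of an intron, was at 3.46, 3.47 and 3.51 in null 67.1 and 4.36, 4.30 and 4.84 in null 67.5. The null 67.1 arrays were nearly equal and all lay below null 67.5, with a difference of -1.02 ± 0.15 (adjusted p = 0.0115). The call was lost without null 67.1 replicate 1 or 2.

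CIPK23 (LOC4342410), a protein kinase that is switched on by calcineurin B-like calcium sensors and acts on potassium uptake in rice, was at 4.86, 4.68 and 4.71 against 5.21, 5.34 and 5.29. The lines did not overlap and each was tight, and the difference was -0.53 ± 0.09 (adjusted p = 0.0356). NEDD8 (LOC4347085, also UBQ4), which encodes ubiquitin-like modifier sequence, was at 5.60, 5.71 and 5.86 against 6.16, 6.55 and 6.50, a difference of -0.68 ± 0.13 (adjusted p = 0.0451). It stands on the list of reference genes, many of which are used to normalise other assays. The calls of CIPK23 and NEDD8 were lost without 7 and 10 of the 12 arrays, any null 67.1 array and null 67.5 replicates 2 and 3 among them.

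DJC27 (LOC4332515), also ERdj3A, a J-domain partner of the chaperone BiP in the endoplasmic reticulum, was at 4.33, 4.24 and 4.20 in null 67.1 and 4.77, 4.77 and 5.32 in null 67.5. Its difference was -0.70 ± 0.13 (adjusted p = 0.0419), with null 67.5 replicate 3 highest. HPT2 (LOC4343702), a homogentisate prenyltransferase of plastid prenylquinone synthesis, was at 6.04, 6.06 and 6.14 against 6.47, 6.70 and 6.98, a difference of -0.64 ± 0.12 (adjusted p = 0.0451). Both calls were lost without 10 of the 12 arrays. DJC27 kept its call without null 67.5 replicate 1 or 2, and HPT2 without null 67.5 replicate 1 or OE 67.1 replicate 2.

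Calls that did not rest on any single array were few. Only 8 of the 56 genes were called without each of the 12 arrays in turn, namely LOC4342250, LOC4331398, LOC4330226, LOC9268613, LOC4329433, LOC4324297, LOC9271957 and LOC4334969; LOC9268613, LOC4329433 and LOC4324297 are named here after their values were seen. The first 6 were lower in null 67.1, by 0.73 to 6.21, and the last pair was higher. LOC4331398 was at 6.82, 6.30 and 7.17 in null 67.1, below the other 9 arrays, which lay between 7.57 and 8.03. LOC4334969 was low in null 67.5 instead, at 5.78, 5.62 and 5.85 against 6.38 to 6.60 on the other 9 arrays.

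**Figure D2:**
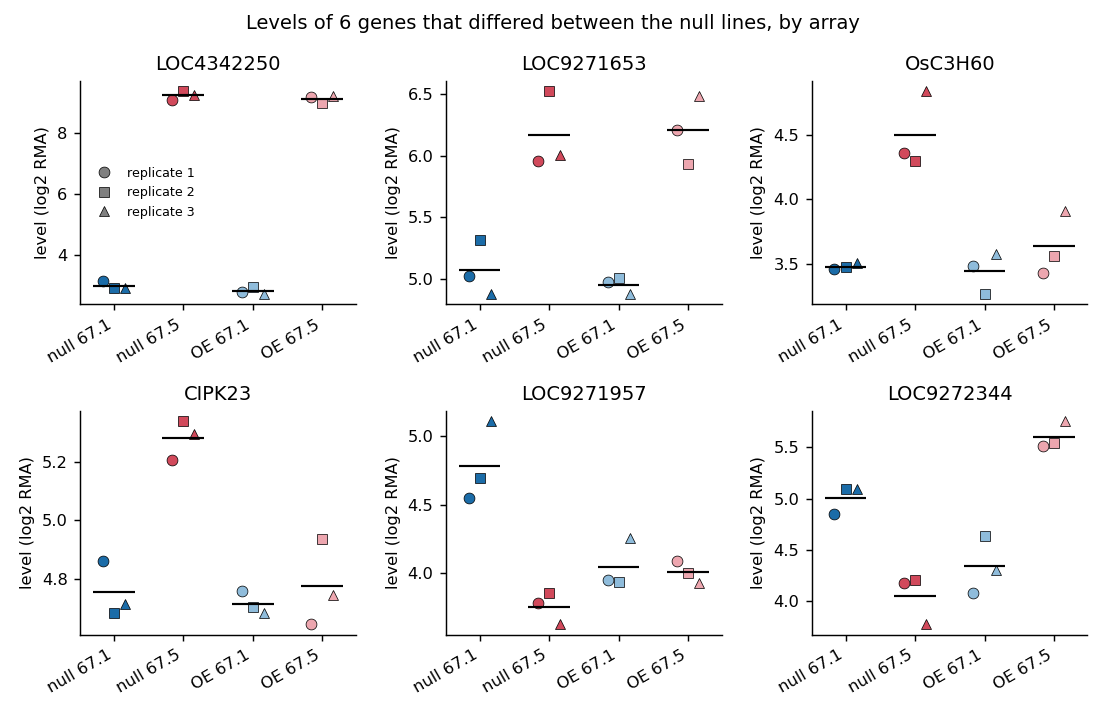
Level of 6 genes called between the null lines (log2 RMA value, y axis, with its own range in each panel) on each of the 12 arrays, by line (x axis). Symbols mark the replicate and horizontal lines the mean of 3 arrays. LOC4342250 and LOC9271653 split by family in null and OE lines alike, OsC3H60 and CIPK23 are high in null 67.5, LOC9271957 is high in null 67.1, and LOC9272344 runs in opposite directions in the null and the OE lines.

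In order to see whether the differences recurred between the families, the same 56 genes were read in the overexpressing sisters, whose arrays the null difference does not use except through the pooled spread. OE 67.1 differed from OE 67.5 in the same direction in 49 of the 56 (87.5%), against 74.0% of all tested probe sets, and 14 of the 56 (25.0%) were called there, against 0.829% of all. Of the 14, 13 had the same direction and LOC9272344 the opposite one. Both counts moved with the arrays and the processing. Without null 67.5 replicate 1, 179 of 1113 were called in the OE lines, and after quantile normalization 6 of 60. The same direction was found for 41 of 55 (74.55%) without null 67.5 replicate 2 and for 1047 of 1113 (94.07%) without null 67.5 replicate 1. The shares of all probe sets in those fits are not given here. The median difference in the OE lines, taken in the direction of the null lines, was 0.228. That it was below the 0.729 of the null lines follows at least in part from the selection of the genes on the null difference. Over all tested probe sets the differences of the null and OE lines correlated across genes at r = 0.61, and at 0.57 after quantile normalization, as a description in which genes are not independent and repetitions may share growth days.

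Besides LOC4342250, the genes that split by family included LOC9271653, at 5.02, 5.32 and 4.87 in null 67.1 and 5.96, 6.52 and 6.01 in null 67.5. The OE lines had nearly the same levels, 4.88 to 5.01 in OE 67.1 and 5.93 to 6.48 in OE 67.5, and the differences were -1.09 ± 0.16 (adjusted p = 0.0122) and -1.26 ± 0.16 (adjusted p = 0.00367). LOC9268613 behaved alike, with 4.66, 4.55 and 4.56 against 5.40, 5.76 and 5.73 in the null lines, and differences of -1.04 ± 0.11 (adjusted p = 0.00289) and -1.15 ± 0.11 (adjusted p = 3.27e-04). In all, both lines of family 67.1 lay apart from both lines of family 67.5, array by array, for 24 of the 56 genes, against 4.19% of all tested probe sets. All 56 had null arrays that did not overlap, which this split requires, so part of the excess follows from their selection. Of all tested probe sets 5117 met that condition, and 1017 of these split by family.

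In some calls the 3 arrays of 1 line lay beyond all 9 others, a group that overlaps with the genes split by family. Null 67.5 was above all other lines for 26 of the 56 genes, among them OsC3H60, CIPK23, NEDD8 and DJC27, whereas 1.34% of all tested probe sets had this order. Of the 26, 6 also split by family. Null 67.1 was above all others for 7 genes, against 0.833% of all, and 2 of the 7 also split by family. Since the 56 were selected for a difference between the null lines, a share above that of all probe sets follows from the selection in part.

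**Figure D3:**
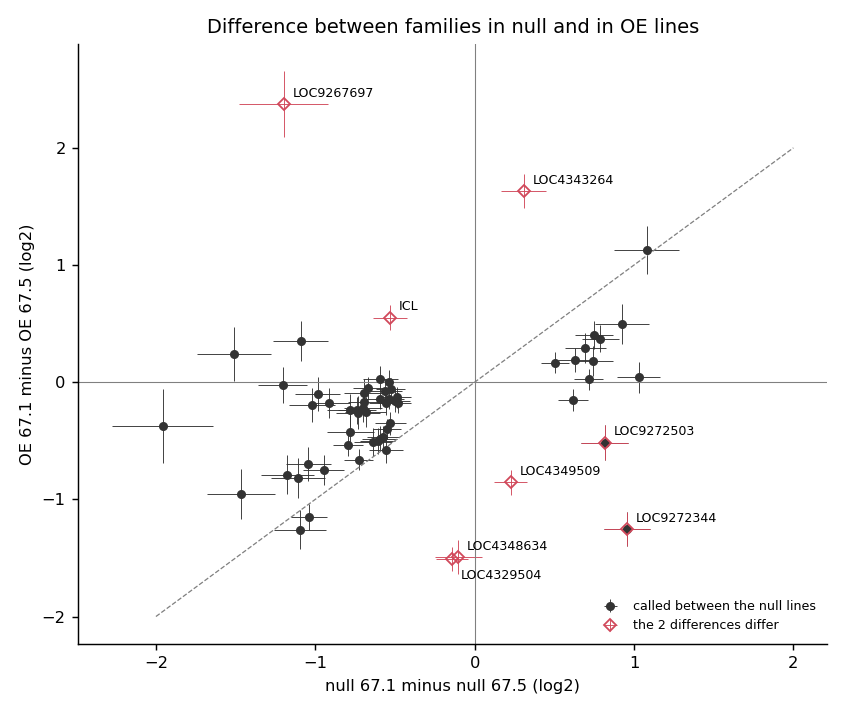
Difference OE 67.1 minus OE 67.5 (y axis) against null 67.1 minus null 67.5 (x axis), both log2, with SE bars from the model. Filled circles are 55 of the 56 genes called between the null lines, LOC4342250 lying outside the range at -6.21 and -6.28; open diamonds are the 8 genes for which the null and OE differences differed, and the dashed line marks equal differences.

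The null and OE differences themselves differed for 8 genes (0.033% of those tested; 1212 at an unadjusted p under 0.05). LOC9272344 was higher in null 67.1 than in null 67.5, at 4.85, 5.09 and 5.09 against 4.18, 4.20 and 3.78, a difference of 0.96 ± 0.15 (adjusted p = 0.0137). In the OE lines the order was turned, 4.08 to 4.63 against 5.51 to 5.75. LOC9272503 also turned, from 0.82 ± 0.15 in the null lines (adjusted p = 0.0419) to -0.52 ± 0.15 in the OE lines (adjusted p = 0.0762). The null call of LOC9272344 was lost without null 67.1 replicate 2 or 3 or null 67.5 replicate 3, and that of LOC9272503 was kept only without null 67.5 replicate 1.

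The remaining 6 of these 8 genes were not called between the null lines. LOC9267697 was at 4.50, 4.37 and 4.65 in null 67.1 and 5.16, 5.56 and 6.40 in null 67.5, a difference of -1.20 ± 0.28 (adjusted p = 0.0857), against 2.37 in the OE lines. ICL (LOC4343441), an enzyme of the glyoxylate cycle that helps seedlings turn stored lipid into sugar, was at 6.20, 6.21 and 6.14 against 6.88, 6.69 and 6.58. Its null arrays did not overlap, yet the difference of -0.53 ± 0.11 missed the threshold (adjusted p = 0.0558), and the OE lines differed by 0.55. LOC4329504, LOC4348634, LOC4349509 and LOC4343264 differed by -0.14 to 0.31 between the null lines and by -1.51 to 1.63 between the OE lines.

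Further genes were read in the null lines because earlier results of these arrays had them differ with overexpression. Here they give the level without the transgene. TIP1;2 (LOC4324303), a water channel of the vacuole membrane, was at 5.64, 5.42 and 5.74 in null 67.1 and 6.73, 5.70 and 6.83 in null 67.5. Its second null 67.5 array was close to null 67.1, and the difference was -0.82 ± 0.23 (adjusted p = 0.120). The calmodulin-like gene CML1 differed by -0.40 ± 0.22 (adjusted p = 0.343), the expansin gene EXPB15 by -0.32 ± 0.25 (adjusted p = 0.527) and the endoglucanase gene GLU15 by 0.13 ± 0.19 (adjusted p = 0.750). The unnamed gene LOC4331301 differed by -1.36 ± 0.39 (adjusted p = 0.130). None of these passed, and the intervals are wide: that of EXPB15 ran from -0.85 to 0.22.

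Crown root regulators are the gene group that the crl1 background makes of interest. Of the 14 on the list none was called, against 0.231% of all tested probe sets. At that rate a list of 14 would seldom hold a call. None reached an unadjusted p under 0.05, against 17.5% of all. Their differences lay between -0.19 and 0.24, with 95% intervals that reached from -0.46 to 0.53 at the extremes. WOX11 (LOC4344325), a homeodomain factor that promotes crown root emergence, was at 5.88, 6.06 and 5.88 in null 67.1 and 6.05, 5.91 and 5.93 in null 67.5. RR2 (LOC4329677), the cytokinin response regulator that WOX11 represses, was at 6.89, 7.12 and 7.19 against 7.09, 6.83 and 6.94. The arrays of the lines were interleaved for both genes, with differences of -0.02 ± 0.11 (adjusted p = 0.933) and 0.11 ± 0.11 (adjusted p = 0.630).

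The patterning genes of the root tip gave the same picture. QHB (listed as OsWOX9, LOC4324824), which marks the quiescent centre of the rice root, was at 3.51, 3.28 and 3.06 against 2.92, 3.15 and 3.06, and had the largest difference of the list, 0.24 ± 0.14 (adjusted p = 0.378). SHR1 (listed as OsGRAS-38, LOC4343753), a GRAS factor of root radial patterning, was at 6.19, 6.34 and 6.24 against 6.26, 6.17 and 6.40. The Aux/IAA repressor gene IAA3 was at 7.02, 7.15 and 7.17 against 7.22, 7.41 and 7.27, without overlap but with an adjusted p of 0.295. The wider auxin list had a median of 0.03 over 69 genes and the cytokinin list 0.01 over 43. Neither held a call, which says little for lists of this size when 0.231% of all tested probe sets were called.

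Of 39 gene lists, 3 held a called gene, 1 each, and the calls were those of CIPK23, NEDD8 and DJC27. These were 3 of the 1339 genes in the lists, against 56 of the 24251 tested probe sets (0.231%), so calls were not concentrated in the lists. The photosynthesis list, which also marks green leaf tissue, had the lowest median. Of its 24 genes 22 were below 0, against 53.2% of all tested probe sets, the median was -0.25 against -0.01 over all tested probe sets, and 14 reached an unadjusted p under 0.05, all lower in null 67.1, against 10.2% of all probe sets. None passed the adjusted threshold with all arrays. Without null 67.5 replicate 1, 7 of the 24 were called, all lower, against 2.92% of all probe sets. The list is bright, with mean levels of 6.63 to 7.05 on the null arrays. In the brightest quintile of all probe sets 74.9% were below 0, with a median of -0.11. Without null 67.5 replicate 1 the medians were -0.27 for the list and -0.16 for that quintile. Quantile normalization left 19 of the 24 below 0 and the list median at -0.17, against 0.01 over all and 0.00 in that quintile. In the OE lines the list median was -0.10, against -0.15 in that quintile.

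PSB28 (LOC4326537), an assembly factor of photosystem II, had the smallest p of that list, with 5.64, 5.85 and 5.89 in null 67.1 and 6.20, 6.23 and 6.42 in null 67.5. Its arrays did not overlap, and the difference was -0.49 ± 0.10 (adjusted p = 0.0674; 0.0283 without null 67.5 replicate 1). FBPase (LOC4332364), a fructose bisphosphatase, was at 5.96, 6.14 and 6.09 against 6.48, 6.38 and 6.50, a difference of -0.39 ± 0.09 (adjusted p = 0.0795). The other 5 genes called without that array were a ferredoxin-NADP reductase gene (FNR, LOC4334338), the leaf reductase gene LFNR1, the Rubisco activase gene OsrcaA1, the photosystem II subunit gene PSBW and OSA15. PORA, the protochlorophyllide reductase of etiolated tissue, did not share the direction, with a difference of 0.11 ± 0.11. Nor did a second gene named FNR (LOC4342399), with 0.10 ± 0.11. Both FNR genes entered the list by name, and the tissue in which each acts was not examined.

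The mean level of the 24 photosynthesis genes was 6.63, 6.66 and 6.78 on the null 67.1 arrays and 6.81, 6.90 and 7.05 on the null 67.5 arrays, without overlap. In pooled stem bases fewer green cells and less RNA per cell cannot be told apart, and the part of the shift of bright probe sets in this separation was not tested. The seed list, with a mean level from 3.75 to 3.81 in null 67.1 and 3.68 to 3.81 in null 67.5, showed no such separation. The reference list did, at 6.02 to 6.12 against 6.16 to 6.39. So did the list of calcium sensors and kinases, at 4.57 to 4.61 against 4.62 to 4.71. The separation was therefore not particular to the photosynthesis list. For the root tissue list the ranges were 4.73 to 4.82 and 4.85 to 4.96, its median was -0.13, and 9 of its 14 genes were below 0. At an unadjusted p under 0.05, 3 of the 14 were lower, against 10.2% of all probe sets, and 1 was higher, the phosphate transporter gene OsPht1;11, named here after its values were seen, with a difference of 0.34 ± 0.11 (adjusted p = 0.146). In the OE lines the median of this list was 0.06, of the opposite sign. PRX112 (LOC4344279), a class III peroxidase, had the smallest p of the list, with 4.50, 5.14 and 4.96 against 5.50, 5.68 and 5.92, a difference of -0.83 ± 0.17 (adjusted p = 0.0617). The part of green or root tissue in the other results was not tested.

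Housekeeping genes leaned one way. All 31 genes of the reference list, which holds actins, tubulins, GAPDH, ubiquitins, PP2A and translation factor genes, were below 0, with a median of -0.18, and NEDD8 was the single call. Of 19 cytosolic ribosomal protein genes 18 were below 0, with a median of -0.19, and none passed. For comparison, 53.2% of all tested probe sets and 74.9% of the brightest quintile were below 0, and that quintile had a median of -0.11, as given above. After quantile normalization 26 of the 31 and 15 of the 19 genes were below 0, against 11365 of the 24251 tested probe sets. The medians of these lists were then -0.12 and -0.07. The OE lines showed medians of -0.19 and -0.20 for the same lists.

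Water channels were mixed. Of 27 aquaporin genes 16 were below 0, the median was -0.13 (-0.08 after quantile normalization), 9 reached an unadjusted p under 0.05 as lower, against 10.2% of all probe sets, 2 reached it as higher, and none passed. PIP1;1 (LOC4330248), a plasma membrane water channel, was at 6.86, 7.02 and 6.82 in null 67.1 and 7.21, 7.33 and 7.62 in null 67.5, a difference of -0.49 ± 0.11 (adjusted p = 0.0731). The calcium list, with CIPK23 called among 90 genes, had a median of -0.06 and 24 members at an unadjusted p under 0.05, against 17.5% of all probe sets, with 18 of them lower, against 10.2%. ER chaperones and protein disulfide isomerases, with DJC27 called among 21, had a median of -0.09, which became -0.01 after quantile normalization.

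Several lists contained genes whose arrays stood apart but which missed the threshold. OsSUS7 (LOC4335303), a sucrose synthase, was at 7.41, 7.19 and 7.22 in null 67.1 and 6.37, 6.84 and 6.05 in null 67.5, a difference of 0.85 ± 0.17 (adjusted p = 0.0546). The sugar transporter gene SWEET2b (listed as MtN3-like, LOC4326923) ran the other way, at 4.47, 4.62 and 4.63 against 5.11, 5.11 and 5.67, with -0.72 ± 0.15 (adjusted p = 0.0628). These opposite members belong to a list of 63 sugar genes whose median was -0.06. HSF17, a heat shock factor gene, was at 4.40, 4.47 and 4.37 against 4.06, 3.90 and 4.01, a difference of 0.42 ± 0.08 (adjusted p = 0.0536), while HSF24 of the same list differed by -0.48 ± 0.12 (adjusted p = 0.0916).

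The remaining lists held no call. Medians were -0.15 for 20 genes of cell death, autophagy and senescence, -0.15 for 9 histone genes and -0.09 for 81 genes of the cell cycle, and the latter pair became -0.01 and -0.01 after quantile normalization. On the other side the medians were 0.11 for 11 ethylene genes, 0.08 for 14 gibberellin genes and 0.08 for 21 genes of diterpenoid phytoalexin synthesis, of which 19 were above 0. The phytoalexin genes are dim, with mean levels of 3.02 to 3.13 on the null arrays, and in the dimmest quintile of all probe sets the median was 0.05 as well and 31.9% were below 0. Quantile normalization left their median at 0.07, against 0.03 in that quintile. All other lists had medians between -0.06 and 0.07, and for 7 of the 39 the sign of the median turned on quantile normalization.

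**Figure D4:**
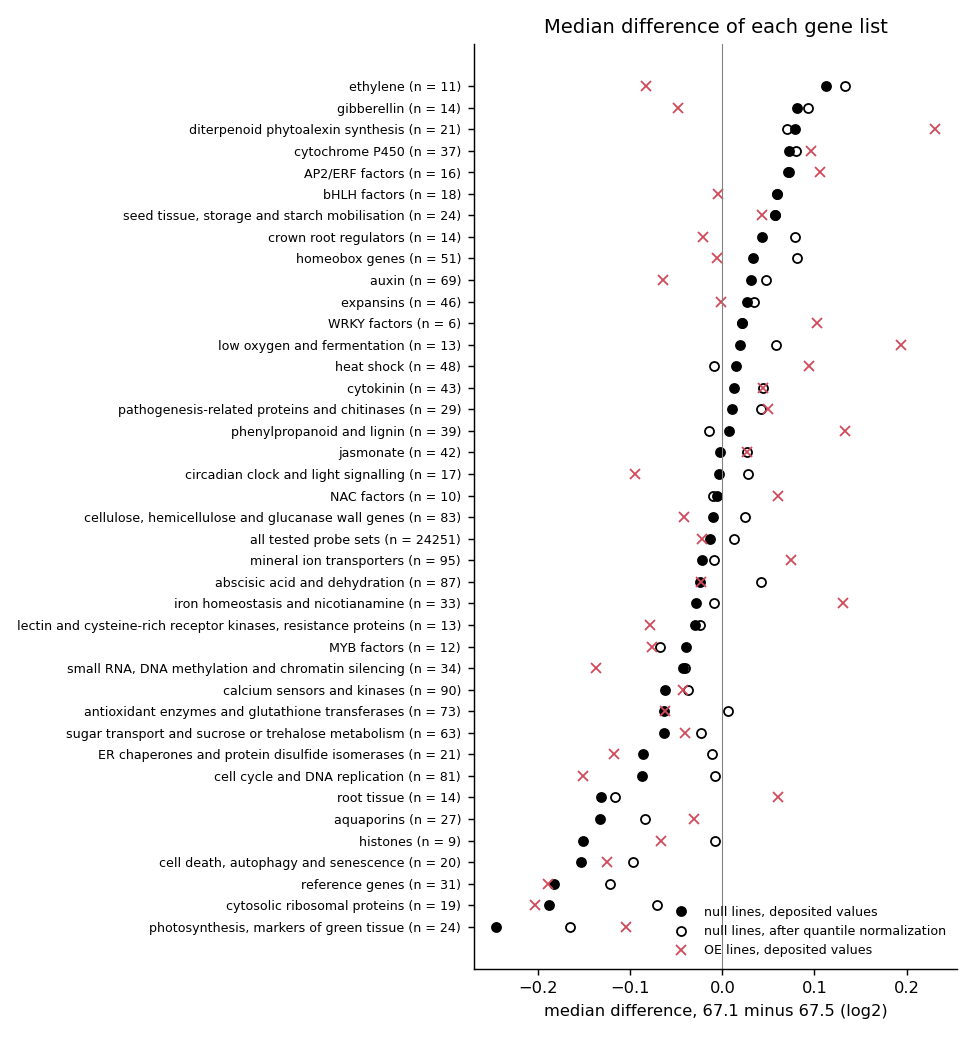
Median difference between families (67.1 minus 67.5, log2, x axis) of each gene list and of all tested probe sets (y axis, with the number of genes). Filled circles show the null lines as deposited, open circles the null lines after quantile normalization, and crosses the OE lines. Photosynthesis has the lowest median in the null lines, -0.25, and remains lowest after quantile normalization, at -0.17.

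Within a line, most genes were steady but some varied strongly between repetitions. An SD above 0.5 was found for 55 probe sets in null 67.1 and 188 in null 67.5. Nicotianamine synthase genes, whose product carries iron within the plant, were among the most variable. NAS1 (LOC4332608) was at 5.62, 3.81 and 5.33 in null 67.1 and 4.51, 5.97 and 7.73 in null 67.5. Its SD was 0.97 and 1.61, the lines overlapped, and the difference of -1.15 ± 0.61 missed the threshold (adjusted p = 0.342).

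NAS2 (LOC4332607) also peaked on null 67.5 replicate 3, at 6.40, against 3.65 to 4.76 on the other null arrays. NAS3 (LOC4344361) was steadier, with a mean level of 6.21 ± 0.31 (SD, n = 3) in null 67.1 and 6.88 ± 0.11 (SD, n = 3) in null 67.5. Its difference was -0.67 ± 0.16 (adjusted p = 0.0857, limma). The transporter gene YSL15, a carrier of iron with phytosiderophores in rice, was higher in null 67.1 by 0.37 ± 0.09 (adjusted p = 0.0857), opposite in sign to NAS3. Its levels were dim, at 3.10, 3.11 and 3.12 against 2.78, 2.69 and 2.73. They lay within the range of the dimmest quintile of probe sets, 2.15 to 3.39, where the median difference was 0.05. The list of 33 iron genes had a median of -0.03. Null 67.5 replicate 3 thus stood out for NAS1 and NAS2, and it did so for the metallothionein gene MT-1-4b as well, at 7.04 against 4.75 to 5.56.

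Other variable genes peaked on other arrays. CBF3 (LOC4347620), a DREB1 factor of the cold response, was at 4.97, 6.98 and 4.17 in null 67.5, an SD of 1.45, and at 5.14, 4.85 and 4.97 in null 67.1. The hemoglobin gene NSHB1 was at 6.33, 7.15 and 7.68 in null 67.1 and 6.76, 6.76 and 7.60 in null 67.5, and NSHB2 at 6.44, 7.18 and 7.77 against 6.58, 6.71 and 7.40. Both hemoglobin genes were highest on replicate 3 of each line. GRXC15, a glutaredoxin gene, was at 6.24 on null 67.1 replicate 3 against 4.85 to 5.20 on the other null arrays, and GER2 had an SD of 0.98 in null 67.5.

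The widest swings were those of a gene named here after its values were seen. LOC9267215, listed as a long non-coding RNA, was at 8.73, 9.15 and 8.78 in null 67.1 and at 8.64, 4.11 and 4.73 in null 67.5. Null 67.5 replicate 1 thus had the level of null 67.1 and the other null 67.5 arrays a far lower one, and the difference of 3.06 ± 1.07 missed the threshold (adjusted p = 0.180). The OE arrays were split as well, at 5.55, 8.95 and 8.63 in OE 67.1 and 4.58, 7.52 and 4.69 in OE 67.5. No other tested gene spanned more than 2.5 in all lines but null 67.1, and in the null lines only NAS1, CBF3 and LOC4340085 did so besides it. For LOC4342250, by contrast, null 67.5 replicate 1 stood with its own line.

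**Figure D5:**
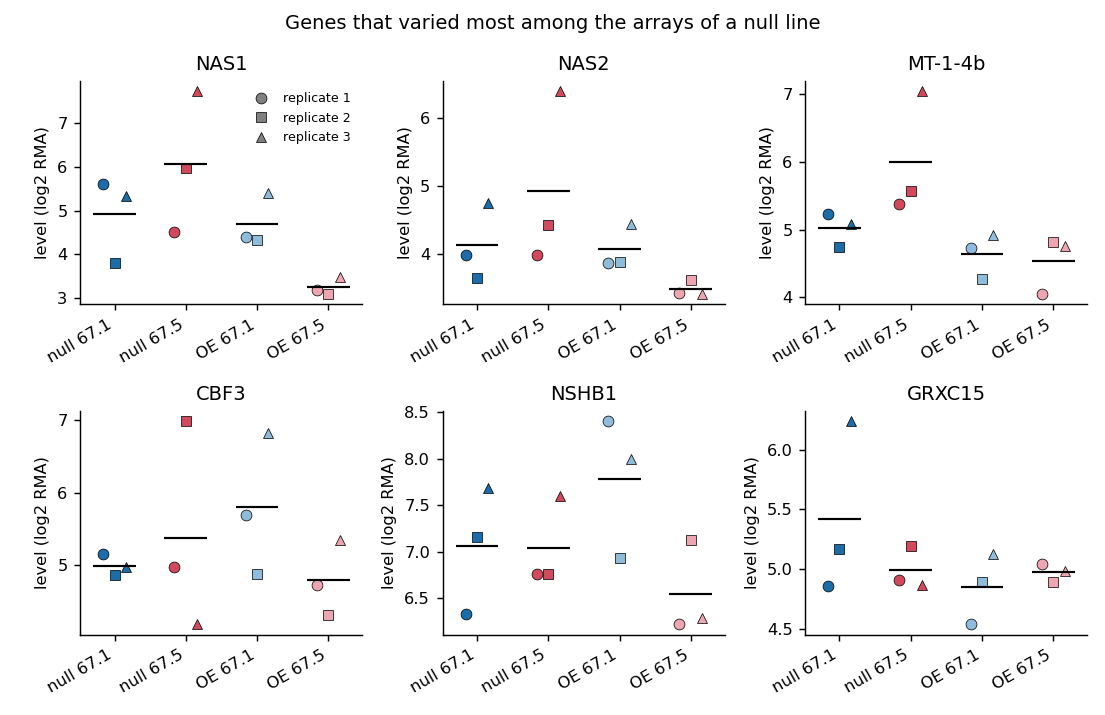
Level of 6 of the genes with the largest SD among the arrays of a null line (log2 RMA value, y axis, with its own range in each panel), for each array by line (x axis). Symbols mark the replicate and horizontal lines the mean of 3 arrays. NAS1, NAS2 and MT-1-4b peak on null 67.5 replicate 3, at 7.73, 6.40 and 7.04, and CBF3 on null 67.5 replicate 2, at 6.98.

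The called genes did not lie side by side. All 56 were placed in the order of genes along the chromosomes, taken from the annotation of a later assembly and used for order only. They fell on all 12 chromosomes, and none had another called gene as its nearest tested neighbour. For 20 of them (35.7%) at least 1 neighbour reached an unadjusted p under 0.05, close to the 32.1% of all 24160 genes placed for which this was so.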

How the data were processed

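Biotin-labelled cRNA from rice stem bases was measured on Affymetrix arrays of 1 colour, per the labels' protocols. The authors deposited log2 values made with RMA, per the submitters' processing notes; its version and settings and the genome build were not given in the sources used here. This step usually equalises the arrays, but the deposited values were not fully equal. Array medians over all probe sets ran from 4.34 to 4.39. The interquartile range of the tested probe sets ran from 1.96 (null 67.1 replicate 1) to 2.24 (OE 67.5 replicate 3). Total RNA per sample cannot be seen, and small changes of dim probe sets are compressed. The number of arrays limits the precision.

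Of 36643 probe sets, 24251 had a gene in the platform annotation (24161 with 1 gene, 90 with several) and were tested; 12392 were not. Names came from RefSeq's gene table (ASM3414082v1), which also gave the gene order. No gene has its level set against another's except through the array median.

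The model had a mean for each of the 4 lines over 12 arrays (limma 3.58.1, R 4.3.3, lmFit and eBayes, 8 residual and 6.35 prior degrees of freedom, two-sided). Its contrasts were null 67.1 minus null 67.5, OE 67.1 minus OE 67.5, and their difference. P-values were adjusted by Benjamini-Hochberg over all tested probe sets, with a threshold of 0.05. Exact permutation of 3 arrays against 3 could not go below 0.1. On simulated data with these spreads, 55% of changes of 0.5 and 100% of changes of 1 were recovered between the null lines over 24251 probe sets, with 7 false among 162 calls. These rates describe the simulated setting only. In the data the calls ran from 10 to 1113 when 1 array was left out, a dependence that the rates do not describe.

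The genes named were called genes with an informative name and up to 10 unnamed called genes in each direction. For each list they were up to 3 called members in each direction, or else the 2 with the smallest p. Added to these were the 5 most variable named genes of each null line, genes whose null and OE differences differed, and the crown root list. A fixed set held genes that differed with overexpression in earlier results of these arrays. The comparison and the lists were chosen with earlier results of these data known, so they give no independent support. Counts and medians of lists carry no test. Repetitions are said to be independent. That same-numbered arrays share a growth day is not stated, and their deviations correlated at 0.16, -0.13 and 0.16 between the null lines. They were therefore not paired in the main model, although the correlations over all lines, given below, did not settle this.

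Alternatives were the 6 null arrays alone, a replicate block, all probe sets, leaving out dim probe sets (mean under the median), quantile normalization, trend and robust moderation, array weights, and leaving out each array. After seeing the data, a block within the 6 null arrays was added.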

Additional observations from a re-analysis of the deposited data

Results flagged for a closer look

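For 8 genes the difference between families in the null lines differed from that in the overexpressing lines, by the limma test of that difference. The difference of differences, null minus OE, was -3.57 for LOC9267697 (adjusted p = 0.00223), -1.32 for LOC4343264 (0.0398), -1.08 for ICL (LOC4343441; 0.0200), 1.08 for LOC4349509 (0.0182), 1.33 for LOC9272503 (0.0437), 1.37 for LOC4329504 (0.00174), 1.39 for LOC4348634 (0.0395) and 2.21 for LOC9272344 (6.99e-04). Those of LOC9267697, LOC4329504 and LOC9272344 were called without each of the 12 arrays in turn, and the other 5 were lost without 7 to 11 of them.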

How the results depend on the processing

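The count of 56 calls was 20 with the 6 null arrays alone (5 higher, 15 lower), 764 with array weights (290 and 474), 60 after quantile normalization (20 higher) and 83 without dim probe sets (69 lower). The correlations did not settle whether the repetition numbers pair the arrays. Of the null arrays, 2 of 6 correlated best with the same number of the other line. Over all lines 11 of 18 same-numbered pairs had a correlation over 0.1 (range -0.25 to 0.42). All 6 pairs of replicate 3 did (0.16 to 0.42). Pairs of different numbers ranged from -0.39 to 0.35. With the replicate block the count was 507 (157 higher, 350 lower), with 210 of them called in the OE lines, and with the block in the 6 null arrays, chosen after seeing the data, 35 (10 and 25). Leaving out 1 array gave 10 to 1113 calls, 2 to 404 higher and 7 to 709 lower. The calls also found in the OE lines, 14 of 56, numbered 22 without dim probe sets, 6 after quantile normalization, 93 with array weights and 5 to 179 without 1 array, and the share of the same sign was 74.5% to 95.1% without 1 array. The 8 differences between contrasts were 5 after quantile normalization, 7 with all probe sets and 3 to 7 without 1 array. They were 10 with the replicate block and 9 each without dim probe sets, with trend and robust moderation, and with array weights. Causes of these changes were not tested, except that fewer arrays or more probe sets change the adjustment. No called gene named here changed direction under these alternatives. Every line has 3 arrays, which limits the precision: the median 95% interval over all probe sets reached 0.234 to either side. At the adjusted threshold the limit was higher: the smallest difference called was 0.483.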

Other observations

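The 12392 probe sets without a gene in the annotation also differed between the null lines. In a fit of all 36643 probe sets 20 of them were called by limma, 16 lower and 4 higher in null 67.1. That fit kept 22 of the 56 calls described above and lost the rest, among them CIPK23, NEDD8, DJC27 and HPT2, and it called no further probe set with a gene. Probe set 16122868 was at 8.91, 9.07 and 9.04 in null 67.1 and 5.60, 5.54 and 5.91 in null 67.5, a difference of 3.32 ± 0.12 (adjusted p = 1.41e-07), and the OE lines differed by 3.58 (adjusted p = 5.97e-08). Probe set 16352755 ran the other way, at 4.98, 5.48 and 5.48 against 7.98, 8.50 and 8.73, a difference of -3.09 ± 0.28 (adjusted p = 0.00229), and by -3.47 in the OE lines (adjusted p = 3.98e-04). For both, the 6 arrays of family 67.1 lay apart from the 6 of family 67.5, as they did for LOC4342250. Probe sets 16363135 and 16363137, of nearly adjacent numbers, differed by -2.06 (adjusted p = 0.0476) and -1.40 (adjusted p = 0.0456), and by -1.16 (adjusted p = 0.105) and -1.39 (adjusted p = 0.0429) in the OE lines. What these probe sets measure was not examined.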
